A study of Homo sapiens with 16 samples.

Results

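The genes described here are 38 very long protein-coding genes, each spanning more than 200 kb of the human genome from its first to its last annotated base, out of 60448 gene identifiers in the deposited expression table. They were chosen by their FPKM in these same libraries, where their RNA had been seen to be low after cisplatin, so their difference between cisplatin and solvent is a description and carries no test. All 38 were found by identifier, their spans ran from 294 kb (EFNA5) to 2058 kb (MACROD2), 33 exceeded 500 kb, and 8 exceeded 1000 kb. Of these genes, 34 passed the filter of a mean of at least 0.5 FPKM over all libraries. The 4 genes under it were KIF26B, NAALADL2, MACROD2 and PRKG1.

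RNA-seq was performed on 16 libraries in 8 groups of 2. A549 is an established line of human lung adenocarcinoma, and A549/cDDP is a derivative of it that resists cisplatin and is kept in medium with the drug, at a concentration labelled 15 mM, the same as in the experiments (the unit is printed as labelled). A549 and A549/cDDP, neither transfected, were each collected after 24 h of drug solvent or of cisplatin. A549/cDDP was also transfected with 12 pmol of an LNA gapmer, an antisense oligonucleotide that leads RNase H to an RNA, either a control gapmer or a gapmer directed at SCAT7, a long noncoding RNA, and was collected 48 h later after 24 h in solvent or cisplatin. The study asked how both lines answer the drug, and what loss of SCAT7 does in the resistant cells with and without it. The labels do not say whether replicates were separate cultures, so every p-value measures only the spread between these libraries. Depth was 31290000 to 42970000 fragments per library.

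RNA polymerase II reads a gene from end to end without letting go, so a very long gene with long introns needs many hours for each complete transcript. Cisplatin joins neighbouring purines in DNA into crosslinks that stop an elongating polymerase, and transcription-coupled repair removes such lesions from the transcribed strand. Several of the genes, among them FHIT, WWOX, IMMP2L, DPYD, MACROD2, NAALADL2 and PARD3B, lie at common fragile sites, which break when replication is slowed. These sentences are background and were not tested in these data.

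In A549, 32 of the 34 tested genes were lower in cisplatin and 0 were higher (limma, Benjamini-Hochberg adjusted p under 0.05 over 17198 genes). At an unadjusted p under 0.05 the count higher was also 0, where 35.2% of all genes were higher. In the 4 cisplatin comparisons, called means past the adjusted limit in the fit over all genes, which sets a difference beside the spread of the libraries. It is a description and no test, since the genes were listed for this difference. Over all genes tested, 27.1% were lower and 33.3% higher by the same rule. The genes stood at a median of 21.4% of their solvent level, a median change of -1.88 on the log2(FPKM + 0.5) scale, on which every log2 change here is given, against a median of 0.06 over all genes. The change ran from -3.83 in SLIT3 to 0.23 in ZBTB20. FHIT and ZBTB20 were the genes not called. Both solvent libraries lay above both cisplatin libraries for 33 of the 34, as for 35.8% of all genes tested, and ZBTB20 was the gene whose libraries overlapped. The reverse order was seen for 0 of the 34 and for 44.8% of all genes. FPKM is a share of each library, and in bulk RNA fewer cells with an RNA and less of it per cell cannot be told apart.

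The same genes in the 3 states of A549/cDDP showed smaller differences. In A549/cDDP without transfection, 23 of 34 were lower and 0 higher (4.55% of all genes were lower, 3.55% higher), at a median of 79.5% of solvent and a median log2 change of -0.32. The count was 11 without cisplatin replicate 2, 14 without solvent replicate 1 and 13 without solvent replicate 2, and it was 8 in a fit of the 4 libraries compared alone. With the control gapmer, 14 were lower and 0 higher (0.855% of all genes lower, 1.67% higher), at a median of 78.4% of solvent. That count was 6 without either cisplatin library or solvent replicate 2, 8 without solvent replicate 1, and 9 with no filter on low values. With the SCAT7 gapmer, 11 were lower and 0 higher (1.26% of all genes lower, 2.92% higher), at a median of 82.2%. This count was 0 without solvent replicate 1, with 18 genes at an unadjusted p under 0.05, and it was 4 without cisplatin replicate 1 and 6 without solvent replicate 2. In a fit of the 4 libraries compared alone it was also 0, as was the count over all genes, with 16 of the 34 at an unadjusted p under 0.05. The shares of all genes at that unadjusted limit in these smaller fits are not given here. In the main fit, 23 of the 34 and 10.0% of all genes were lower at it with the SCAT7 gapmer. In the 3 states of A549/cDDP 0 of the 34 were called higher, also at an unadjusted p under 0.05. At that limit 11.1%, 8.68% and 12.5% of all genes were higher. Non-overlapping libraries with cisplatin below solvent were seen for 26, 31 and 28 of the 34 genes in the order above, against 25.9%, 20.1% and 22.9% of all genes. The reverse was seen for 2, 0 and 0 genes, against 26.1%, 30.1% and 22.1%.

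**Figure D1:**
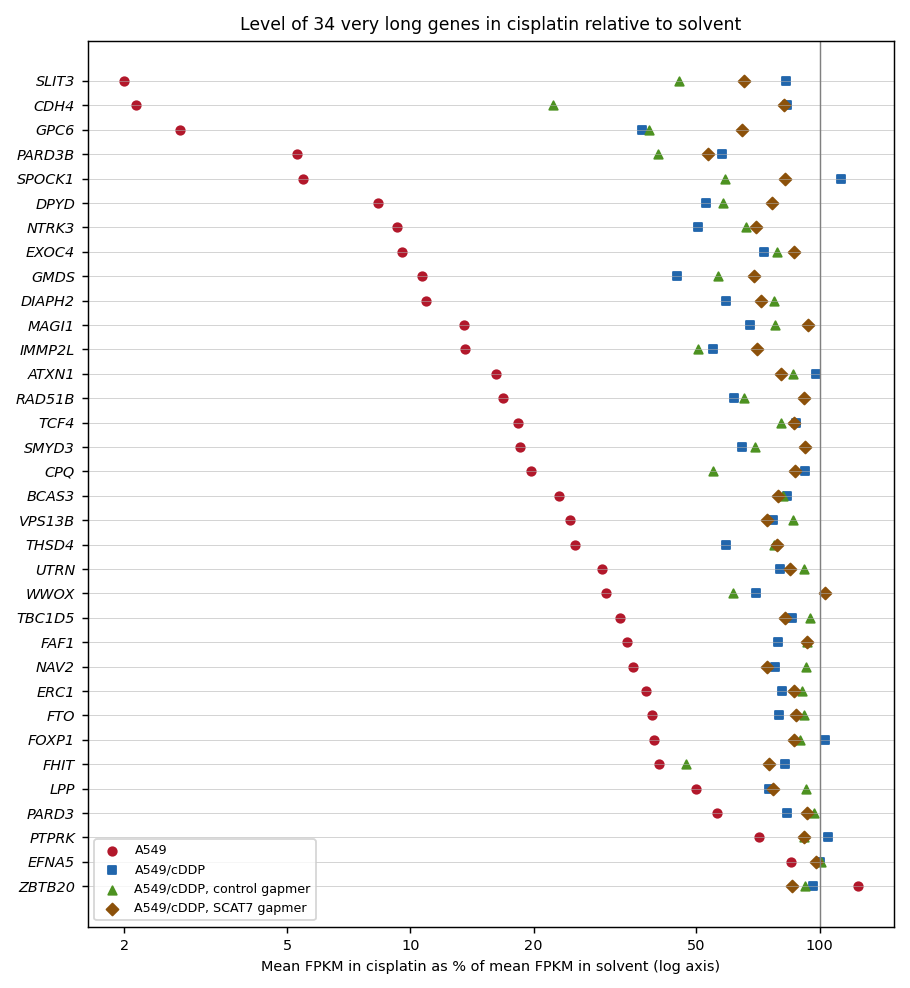
Mean FPKM in cisplatin as a percentage of the mean in solvent (horizontal log axis) for the 34 tested genes (rows, ordered by A549), with 1 point for each of the 4 cell states and means over 2 libraries. The A549 points run from 2.0% (SLIT3) to 124% (ZBTB20), and those of the resistant line lie mostly between 50% and 100%.

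Sequence around the start is shown for SLIT3 and EXOC4, with the lowest log2 changes in A549, and for EFNA5. The EFNA5 change of -0.23 was the next after the highest, that of ZBTB20. The added 0.5 FPKM shrinks the change of genes with low values, so the order by percent of solvent differs. CDH4, at 2.14% of solvent in A549, changed by -3.27, and EXOC4, at 9.52%, by -3.31. The RefSeq start of ZBTB20 lies inside its GENCODE span, and that window, not shown, has 35.7% GC and 0 GC boxes. Each run holds 250 bases before and 50 after the RefSeq start on GRCh38.p14, 5′ to 3′ on the gene's strand, with the GC box GGGCGG, or its reverse complement CCGCCC, in capitals. SLIT3 is from chr5:169301090-169301389 (minus strand), EXOC4 from chr7:133252828-133253127 (plus strand) and EFNA5 from chr5:107670888-107671187 (minus strand).
SLIT3: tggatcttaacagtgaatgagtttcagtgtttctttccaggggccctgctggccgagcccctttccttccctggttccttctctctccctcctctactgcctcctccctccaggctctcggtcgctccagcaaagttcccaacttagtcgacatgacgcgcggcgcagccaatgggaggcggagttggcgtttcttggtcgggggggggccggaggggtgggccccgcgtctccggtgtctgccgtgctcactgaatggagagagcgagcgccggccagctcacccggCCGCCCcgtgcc
EXOC4: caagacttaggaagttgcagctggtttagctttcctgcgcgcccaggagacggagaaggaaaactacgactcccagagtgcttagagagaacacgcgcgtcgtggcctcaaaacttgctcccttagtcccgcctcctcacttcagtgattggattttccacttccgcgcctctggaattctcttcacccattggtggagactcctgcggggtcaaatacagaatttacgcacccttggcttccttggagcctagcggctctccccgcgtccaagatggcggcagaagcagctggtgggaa
EFNA5: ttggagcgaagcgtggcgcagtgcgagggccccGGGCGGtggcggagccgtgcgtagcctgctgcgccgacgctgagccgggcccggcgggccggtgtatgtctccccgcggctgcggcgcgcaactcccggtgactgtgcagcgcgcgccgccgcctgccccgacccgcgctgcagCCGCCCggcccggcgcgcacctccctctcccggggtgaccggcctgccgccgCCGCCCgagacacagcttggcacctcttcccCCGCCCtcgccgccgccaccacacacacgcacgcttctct
The SLIT3 window held 1 GC box, the EXOC4 window 0 and the EFNA5 window 4, at 64.7%, 55.7% and 78.0% GC. RefSeq windows were matched for 33 of the 38 genes (not SPOCK1, KIF26B, CPQ, VPS13B and PARD3). The 33 include MACROD2, NAALADL2 and PRKG1, which were not tested. As in ZBTB20, some RefSeq starts lie far inside the GENCODE span, so those windows are not at the first annotated base. Among them, the start lies 332 kb from the gene's end in FHIT (span 1502 kb), 584 in TBC1D5 (1288), 951 in NAALADL2 (1372) and 441 in CDH4 (688). The GC box, searched on both strands, was in 16 of 33 windows (48.5%), against 44.6% of 27305 windows of all genes and 69.1% of 10806 windows of genes tested. TATAAA was in 2 windows (6.06%, against 12.0% and 5.72%), and CCAAT in 8 (24.2%, against 35.7% and 36.3%). The median GC content was 64.7%, against 58.3% for all windows and 65.3% for genes tested. Such matches describe letters and are not binding sites.

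Exons make up a small share of these genes. Between 0.362% (FHIT) and 6.74% (NTRK3) of the span was exonic on the GENCODE models, and WWOX holds an intron of 779 kb. GPC6 begins with an intron of 318 kb and EFNA5, the shortest of the genes, with 1 of 243 kb. FTO, at 457 kb and 4.68% exonic, and TCF4, at 442 kb and 6.29%, are at the compact end. By contrast IMMP2L spreads 3.4 kb of exon over 899 kb.

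Among the 8 genes of adhesion, guidance and matrix, all 8 were lower in A549, as were 27.1% of all genes tested. Their median log2 change was -3.22. SLIT3 (ENSG00000184347, chromosome 5, 168661733 to 169301129 on hg38), a secreted guidance protein that binds ROBO receptors, stood in A549 at 8.95 and 9.54 FPKM in solvent and at 0.163 and 0.208 in cisplatin, which is 2.0% of its solvent mean. In A549/cDDP, SLIT3 stood at 6.99 and 6.59 FPKM in solvent and 5.73 and 5.52 in cisplatin. SLIT3 was at 10.5 and 10.4 in solvent against 4.93 and 4.58 in cisplatin in control gapmer cells, and at 6.02 and 6.69 against 3.67 and 4.66 in SCAT7 gapmer cells. The cisplatin libraries lay below the solvent libraries in every state, and the change was -3.83 in A549, -0.25 in A549/cDDP, -1.06 in the control gapmer cells and -0.56 in the SCAT7 gapmer cells. CDH4 (ENSG00000179242, chromosome 20, 61252426 to 61940617), the cadherin known as R-cadherin, stood in A549 at 5.1 and 5.83 FPKM in solvent and at 0.0764 and 0.157 in cisplatin. The resistant line had 0.629 and 0.545 FPKM of CDH4 in solvent and 0.485 and 0.495 in cisplatin. CDH4 was at 3.64 and 3.79 in solvent against 0.813 and 0.845 in cisplatin in control gapmer cells, and at 1.12 and 1.1 against 0.932 and 0.891 in SCAT7 gapmer cells. With the control gapmer in solvent CDH4 was above the other A549/cDDP libraries, and the change with cisplatin there was -1.66, the lowest among the genes in that state. GPC6 (ENSG00000183098, chromosome 13, 93226842 to 94407401), a glypican that carries heparan sulfate at the cell surface, went in A549 from 5.56 and 5.44 FPKM in solvent to 0.181 and 0.119 in cisplatin. In A549/cDDP, GPC6 stood at 2.08 and 2.3 FPKM in solvent and 0.997 and 0.611 in cisplatin. GPC6 was at 6.65 and 6.79 in solvent against 2.85 and 2.29 in cisplatin in control gapmer cells, and at 2.64 and 2.92 against 1.65 and 1.95 in SCAT7 gapmer cells. GPC6 stayed among the 3 lowest genes in every resistant state, at -1.06, -1.24 and -0.52, though the last was not called.

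SPOCK1 (ENSG00000152377, chromosome 5, 136975298 to 137598379), a secreted proteoglycan of the matrix, differed in direction between states. In A549 it stood at 9.36 and 8.51 FPKM in solvent and at 0.511 and 0.464 in cisplatin, 5.46% of solvent. A549/cDDP had 43.0 and 40.0 FPKM of SPOCK1 in solvent and 45.4 and 48.1 in cisplatin. SPOCK1 was at 69.4 and 72.6 in solvent against 41.8 and 41.5 in cisplatin in control gapmer cells, and at 45.1 and 49.0 against 34.5 and 42.9 in SCAT7 gapmer cells. In untransfected A549/cDDP both cisplatin libraries were above both solvent libraries (log2 change 0.17 ± 0.09 SE, not called), whereas with the control gapmer both were below (-0.76, called). NTRK3 (ENSG00000140538, chromosome 15, 87859751 to 88256768), a neurotrophin receptor tyrosine kinase, stood in A549 at 33.8 and 31.0 FPKM in solvent and at 3.2 and 2.82 in cisplatin. In A549/cDDP, NTRK3 stood at 1.18 and 1.37 FPKM in solvent and 0.72 and 0.572 in cisplatin. NTRK3 was at 3.36 and 3.08 in solvent against 2.18 and 2.09 in cisplatin in control gapmer cells, and at 1.29 and 1.65 against 0.866 and 1.19 in SCAT7 gapmer cells. NTRK3 was low in every resistant state in solvent, and its highest library there, 3.36 FPKM, was close to the A549 cisplatin libraries. PTPRK (ENSG00000152894, chromosome 6, 127968779 to 128520674), a receptor tyrosine phosphatase, stood in A549 at 22 and 22.5 FPKM in solvent and at 16.2 and 15.4 in cisplatin, 71.1% of solvent. Resistant cells held 49.3 and 49.6 FPKM of PTPRK in solvent and 51.9 and 51.8 in cisplatin. PTPRK was at 50.5 and 50.1 in solvent against 46.7 and 45.6 in cisplatin in control gapmer cells, and at 48.0 and 48.2 against 41.2 and 46.9 in SCAT7 gapmer cells. Its cisplatin libraries were a little above solvent in untransfected A549/cDDP (0.07 ± 0.05 SE, not called) and below it in the other states.

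EFNA5 (ENSG00000184349, chromosome 5, 107376889 to 107670895), an ephrin ligand, differed little in any state. In A549 it stood at 15.6 and 15.5 FPKM in solvent and at 13.2 and 13.2 in cisplatin, a log2 change of -0.23 ± 0.04 (SE) that was called. In A549/cDDP, EFNA5 stood at 16.6 and 17.2 FPKM in solvent and 17.3 and 16.6 in cisplatin. EFNA5 was at 17.9 and 18.6 in solvent against 18.6 and 18.5 in cisplatin in control gapmer cells, and at 17.5 and 17.1 against 16.5 and 17.4 in SCAT7 gapmer cells. The resistant libraries overlapped between drug and solvent in all 3 states, with changes of 0.01, 0.02 and -0.03. THSD4, a matrix protein of the thrombospondin-repeat family, was called in all 4 states, at 25.3%, 59.0%, 77.5% and 78.9% of solvent in A549, A549/cDDP, the control gapmer and the SCAT7 gapmer. In A549/cDDP, 3 of the 8 genes were called lower, 5 under the control gapmer and 2 under the SCAT7 gapmer. Of all genes tested, 4.55%, 0.855% and 1.26% were lower in these states.

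**Figure D2:**
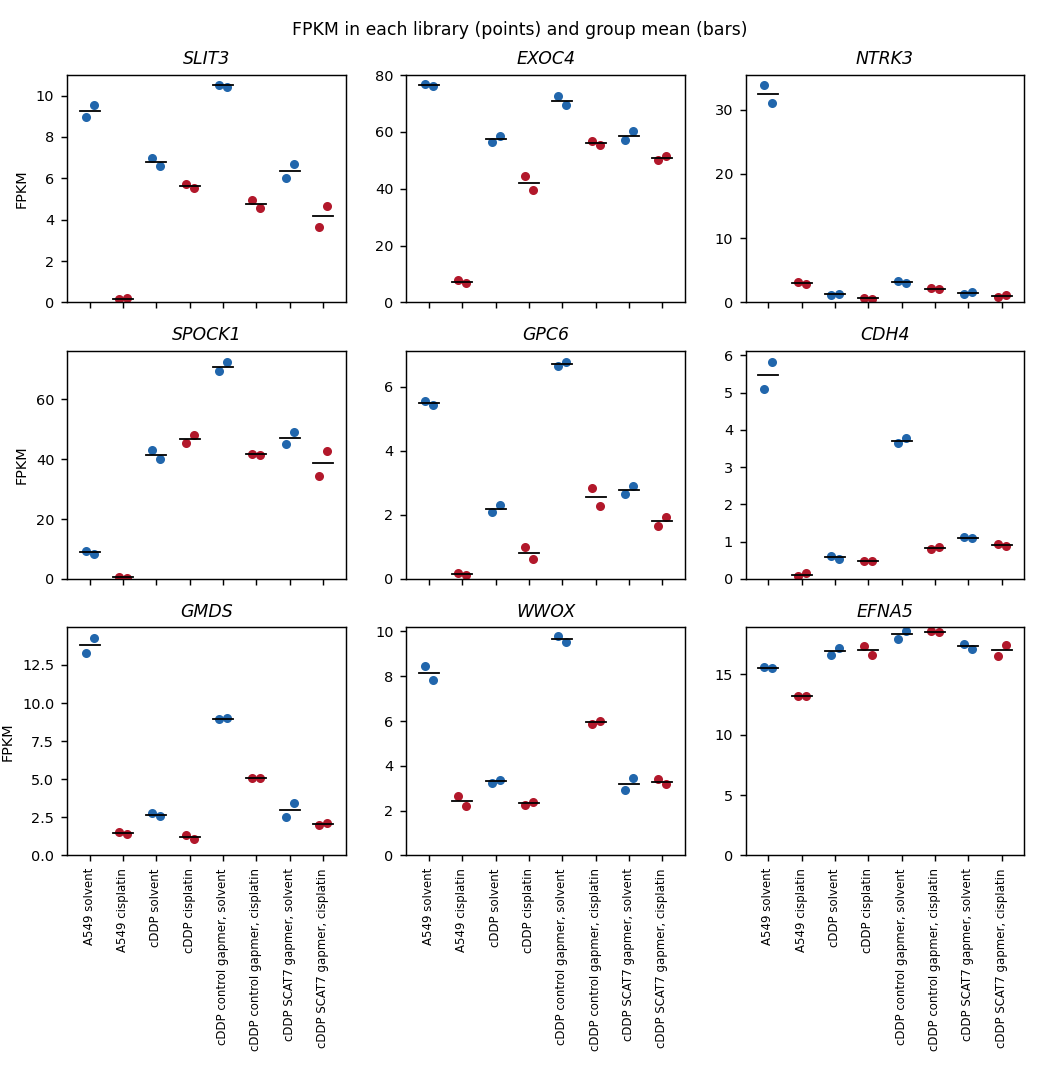
FPKM (vertical axes, from 0, each gene on its own scale) of 9 genes in each of the 16 libraries, blue points for solvent and red points for cisplatin, with a bar at each group mean of 2 libraries. The A549 cisplatin points of SLIT3 (0.163 and 0.208) lie near 0, while those of EFNA5 (13.2 and 13.2) lie just under the solvent points.

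The 12 tested genes of polarity, cytoskeleton and trafficking were all lower in A549 (median -1.80) and all lower in A549/cDDP (median -0.36). Of them 3 were called under the control gapmer and 9 under the SCAT7 gapmer, with medians of -0.18 and -0.31. In the 4 states in this order, 27.1%, 4.55%, 0.855% and 1.26% of all genes tested were lower. EXOC4 (ENSG00000131558, chromosome 7, 133253073 to 134066589), a subunit of the exocyst complex that tethers secretory vesicles, was among the most abundant of the 38. It stood in A549 at 76.7 and 76.2 FPKM in solvent and at 7.86 and 6.7 in cisplatin, 9.52% of solvent. In A549/cDDP, EXOC4 stood at 56.6 and 58.4 FPKM in solvent and 44.5 and 39.7 in cisplatin. EXOC4 was at 72.6 and 69.4 in solvent against 56.9 and 55.3 in cisplatin in control gapmer cells, and at 57.3 and 60.2 against 50.2 and 51.7 in SCAT7 gapmer cells. The resistant cells kept at least 73.3% of the solvent level in each state, and EXOC4 was called in A549/cDDP (-0.45) and with the control gapmer (-0.34), not with the SCAT7 gapmer (-0.20).

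PARD3B (ENSG00000116117, chromosome 2, 204545793 to 205620162) and PARD3 (ENSG00000148498, chromosome 10, 34109560 to 34815325) encode related scaffolds of the apical polarity complex. PARD3B stood in A549 at 2.27 and 1.91 FPKM in solvent and at 0.0871 and 0.133 in cisplatin, a log2 change of -2.08. Untransfected A549/cDDP had 1.4 and 1.79 FPKM of PARD3B in solvent and 0.963 and 0.879 in cisplatin. PARD3B was at 3.84 and 3.68 in solvent against 1.45 and 1.58 in cisplatin in control gapmer cells, and at 3.18 and 2.94 against 1.66 and 1.62 in SCAT7 gapmer cells. It was called in every state, and with the SCAT7 gapmer its change of -0.74 was the lowest of the genes. PARD3 stood in A549 at 38.8 and 37.1 FPKM in solvent and at 21.6 and 21.0 in cisplatin, 56.1% of solvent. In A549/cDDP, PARD3 stood at 30.7 and 29.5 FPKM in solvent and 26.1 and 24.2 in cisplatin. PARD3 was at 36.1 and 37.5 in solvent against 36.4 and 35.1 in cisplatin in control gapmer cells, and at 30 and 29.6 against 27.8 and 27.7 in SCAT7 gapmer cells. PARD3 was called in A549 (-0.82) and A549/cDDP (-0.26) only, and its libraries overlapped with the control gapmer.

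UTRN, the utrophin gene, whose product ties the cytoskeleton to the membrane, stood in A549 at 34.2 and 35.2 FPKM in solvent and at 10.3 and 10.1 in cisplatin. In A549/cDDP, UTRN stood at 36.0 and 35.4 FPKM in solvent and 28.3 and 28.8 in cisplatin. UTRN was at 28.1 and 29.8 in solvent against 27.6 and 25.6 in cisplatin in control gapmer cells, and at 41.0 and 39.0 against 33.2 and 34.7 in SCAT7 gapmer cells. LPP, a LIM-domain protein of focal adhesions, stood in A549 at 56.3 and 57.2 FPKM in solvent and at 28.8 and 28.0 in cisplatin, 50% of solvent. In the resistant line there were 57.6 and 58.9 FPKM of LPP in solvent and 45.5 and 42.1 in cisplatin. LPP was at 41.5 and 43.0 in solvent against 40.3 and 37.9 in cisplatin in control gapmer cells, and at 50.4 and 51.7 against 36.7 and 41.9 in SCAT7 gapmer cells. UTRN and LPP were called in A549, in A549/cDDP and with the SCAT7 gapmer, and not with the control gapmer (-0.12 and -0.11), whose solvent libraries were the lowest solvent libraries for both genes.

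TBC1D5, a Rab GTPase-activating protein of the endosome, stood in A549 at 66.1 and 68.0 FPKM in solvent and at 22.4 and 21.3 in cisplatin. In A549/cDDP, TBC1D5 stood at 99.3 and 104 FPKM in solvent and 92.2 and 81.8 in cisplatin. TBC1D5 was at 86.4 and 88.1 in solvent against 84.1 and 81.1 in cisplatin in control gapmer cells, and at 105 and 108 against 82.2 and 92.9 in SCAT7 gapmer cells. NAV2, a neuron navigator protein, stood in A549 at 6.23 and 6.03 FPKM in solvent and at 2.33 and 1.97 in cisplatin. A549/cDDP without transfection had 14.2 and 14.6 FPKM of NAV2 in solvent and 11.3 and 11.1 in cisplatin. NAV2 was at 15.6 and 16.6 in solvent against 14.8 and 15.0 in cisplatin in control gapmer cells, and at 25.2 and 24.0 against 17.1 and 19.4 in SCAT7 gapmer cells. VPS13B, a lipid-transfer protein of the Golgi, stood in A549 at 12.3 and 12.1 FPKM in solvent and at 2.91 and 3.06 in cisplatin. In A549/cDDP, VPS13B stood at 13.7 and 13.9 FPKM in solvent and 10.7 and 10.5 in cisplatin. VPS13B was at 13.6 and 14.8 in solvent against 12.6 and 11.8 in cisplatin in control gapmer cells, and at 19.9 and 20 against 14.3 and 15.3 in SCAT7 gapmer cells. For all 3 genes the A549 cisplatin libraries were the lowest of all 16, and the calls fell in A549, A549/cDDP and the SCAT7 gapmer cells, not in the control gapmer cells. Among the remaining genes of the group, DIAPH2 (a formin) and MAGI1 (a junction scaffold) stood at 10.9% and 13.5% of solvent in A549, BCAS3 at 23.1% and ERC1, a scaffold of vesicle release sites, at 37.6%.

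Of the 6 tested enzyme and mitochondrial genes, 5 were lower in A549 (median -2.05) and 4 in A549/cDDP (median -0.60). With the control gapmer 5 were lower (median -0.74), and with the SCAT7 gapmer 0 (median -0.28, with 4 of 6 non-overlapping below solvent). Over all genes tested, 27.1%, 4.55%, 0.855% and 1.26% were lower in these states, and 22.9% were non-overlapping below solvent with the SCAT7 gapmer. GMDS (ENSG00000112699, chromosome 6, 1623806 to 2245692) catalyses the first step from GDP-mannose to the fucose donor GDP-fucose. It stood in A549 at 13.3 and 14.3 FPKM in solvent and at 1.54 and 1.41 in cisplatin. In A549/cDDP, GMDS stood at 2.79 and 2.57 FPKM in solvent and 1.32 and 1.08 in cisplatin. GMDS was at 8.95 and 9.01 in solvent against 5.06 and 5.06 in cisplatin in control gapmer cells, and at 2.52 and 3.46 against 1.99 and 2.14 in SCAT7 gapmer cells. GMDS was called in A549 (-2.86), A549/cDDP (-0.91) and the control gapmer cells (-0.77). IMMP2L (ENSG00000184903, chromosome 7, 110663051 to 111562517), a mitochondrial inner membrane peptidase subunit, stood in A549 at 13.7 and 11.9 FPKM in solvent and at 1.75 and 1.72 in cisplatin. The derivative line had 6.2 and 7.15 FPKM of IMMP2L in solvent and 3.87 and 3.46 in cisplatin. IMMP2L was at 10.4 and 9.83 in solvent against 4.55 and 5.61 in cisplatin in control gapmer cells, and at 6.71 and 8.39 against 6.62 and 3.99 in SCAT7 gapmer cells. Its cisplatin libraries with the SCAT7 gapmer, 6.62 and 3.99, differed widely. DPYD, which breaks down pyrimidines and the drug fluorouracil, stood at 8.35% of solvent in A549 and 52.8% in A549/cDDP, and was called in both and with the control gapmer (58.2%).

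WWOX (ENSG00000186153, chromosome 16, 78099413 to 79212667), an oxidoreductase with WW domains at a fragile site, stood in A549 at 8.45 and 7.85 FPKM in solvent and at 2.67 and 2.22 in cisplatin. In A549/cDDP, WWOX stood at 3.25 and 3.38 FPKM in solvent and 2.26 and 2.38 in cisplatin. WWOX was at 9.8 and 9.53 in solvent against 5.87 and 6.01 in cisplatin in control gapmer cells, and at 2.92 and 3.48 against 3.42 and 3.17 in SCAT7 gapmer cells. Its libraries in drug and solvent overlapped with the SCAT7 gapmer (0.04 ± 0.10 SE), and the other 3 states were called lower. CPQ, a carboxypeptidase, stood in A549 at 1.75 and 1.04 FPKM in solvent and at 0.277 and 0.273 in cisplatin. The resistant cells had 5.76 and 4.93 FPKM of CPQ in solvent and 5.39 and 4.47 in cisplatin. CPQ was at 14.2 and 12.5 in solvent against 6.94 and 7.71 in cisplatin in control gapmer cells, and at 10.6 and 8.75 against 8.07 and 8.76 in SCAT7 gapmer cells. FHIT (ENSG00000189283, chromosome 3, 59749310 to 61251459), a hydrolase of dinucleoside polyphosphates, was close to the filter, with a mean of 0.518 FPKM, and stood in A549 at 0.206 and 0.357 FPKM in solvent and at 0.0919 and 0.136 in cisplatin. In A549/cDDP, FHIT stood at 0.627 and 0.453 FPKM in solvent and 0.427 and 0.464 in cisplatin. FHIT was at 1.4 and 1.03 in solvent against 0.532 and 0.613 in cisplatin in control gapmer cells, and at 0.614 and 0.501 against 0.379 and 0.459 in SCAT7 gapmer cells. All cisplatin libraries of FHIT were below solvent in A549 and in both gapmer states, but it was called in no state. About 109 reads over the A549 solvent libraries and 45 over the cisplatin libraries lie behind it.

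Of the 8 tested genes of nuclear regulation, repair and signalling, 7 were lower in A549 (median -1.69) and 4 in A549/cDDP. With the control gapmer 1 was lower (RAD51B), and with the SCAT7 gapmer 0 (6 of 8 non-overlapping below solvent). The shares lower over all genes tested were 27.1%, 4.55%, 0.855% and 1.26%, and 22.9% were non-overlapping below solvent with the SCAT7 gapmer. ZBTB20 (ENSG00000181722, chromosome 3, 114314501 to 115147271), a zinc finger repressor, was the exception, and stood in A549 at 1.47 and 0.991 FPKM in solvent and at 1.74 and 1.32 in cisplatin. In A549/cDDP, ZBTB20 stood at 2.84 and 3.31 FPKM in solvent and 2.35 and 3.58 in cisplatin. ZBTB20 was at 1.89 and 2.54 in solvent against 2.06 and 2.02 in cisplatin in control gapmer cells, and at 4.21 and 3.21 against 3.08 and 3.29 in SCAT7 gapmer cells. Its libraries in drug and solvent overlapped in all 4 states. ATXN1, a nuclear co-repressor partner, stood in A549 at 3.24 and 3.5 FPKM in solvent and at 0.532 and 0.56 in cisplatin. Without transfection, A549/cDDP had 5.54 and 5.64 FPKM of ATXN1 in solvent and 5.3 and 5.66 in cisplatin. ATXN1 was at 5.86 and 5.99 in solvent against 5.28 and 4.9 in cisplatin in control gapmer cells, and at 8.98 and 7.78 against 6.37 and 7.12 in SCAT7 gapmer cells. It was 16.2% of solvent in A549 and 98.0% in A549/cDDP, where its libraries overlapped.

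The other genes of that group in A549 stood between 16.8% and 39.4% of solvent. They were RAD51B, a recombination repair protein (16.8%), the transcription factor TCF4 (18.3%), the methyltransferase SMYD3 (18.5%), the ubiquitin-binding adaptor FAF1 (33.8%), the RNA demethylase FTO (38.9%) and the transcription factor FOXP1 (39.4%). In A549/cDDP, RAD51B (61.7%), SMYD3 (64.5%), FAF1 (79.2%) and FTO (79.7%) were called, whereas TCF4 (87.5%) and FOXP1 (103%) were not. FOXP1 libraries overlapped there.

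Of the genes under the filter, KIF26B, PRKG1 and NAALADL2 gave few reads, whereas MACROD2 had about 40 to 429 reads per library. MACROD2, an ADP-ribose hydrolase, averaged 0.393 FPKM, with 0.269 and 0.28 in A549 solvent and 0.159 and 0.0943 in cisplatin, so the A549 libraries did not overlap. In solvent MACROD2 was highest with the control gapmer, at 0.766 and 0.875, and it stood there at 0.518 and 0.425 in cisplatin. NAALADL2 averaged 0.108 FPKM (0.0148 to 0.222), KIF26B, a kinesin-family protein, 0.0416 (0.00446 to 0.0935) and PRKG1, the cGMP-dependent kinase, 0.0366 (0.00542 to 0.125). In A549 the NAALADL2 and KIF26B libraries overlapped, and PRKG1 was higher in cisplatin, about 29 reads over both libraries against 9 in solvent. With the control gapmer KIF26B, NAALADL2 and PRKG1 were non-overlapping below solvent (20.1% of genes tested). About 25, 87 and 6 reads over both cisplatin libraries stood there against 108, 252 and 29 in solvent. NAALADL2 was also non-overlapping below solvent in A549/cDDP (25.9% of genes tested), and KIF26B and PRKG1 with the SCAT7 gapmer (22.9%). About 3 to 58 reads per library lie behind KIF26B and 3 to 50 behind PRKG1, and these genes were not tested.

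Lower levels in A549 were also common among long genes that were not listed. Of the 943 tested protein-coding genes over 200 kb, 909 were not listed, and 569 of those were lower in A549 (62.6%, against 27.1% of all genes) and 152 higher (16.7%, against 33.3%), with a median of -0.41. In the resistant states 172, 46 and 60 of the 909 were lower and 9, 6 and 5 higher, for A549/cDDP, the control and the SCAT7 gapmer cells, where 18.9%, 5.06% and 6.6% lower stand beside 4.55%, 0.855% and 1.26% of all genes. Because the 38 were listed for their low values, a larger change in them than in the rest is fixed by the choice. The adhesion gene KIRREL3 stood at 8.47 ± 0.318 FPKM in A549 solvent and 0.587 ± 0.108 in cisplatin (SD, n = 2). The phosphatase gene PTPRG went from 5.2 ± 0.196 to 0.319 ± 0.0277, MSRA from 8.54 ± 0.381 to 0.567 ± 0.00515 and BMPER from 10.0 ± 0.285 to 1.22 ± 0.213. Some long genes were higher. C2orf88 (323.9 kb) went from 0.616 ± 0.403 to 26.4 ± 0.474 FPKM, ABCA12, a lipid transporter (206.9 kb), from 0.414 ± 0.0843 to 7.16 ± 0.491, and ANK1, an ankyrin (243.5 kb), from 2.48 ± 0.129 to 21.6 ± 0.312. ASTN2 (989.8 kb) went from 2.29 ± 0.00885 to 12.9 ± 0.411 and FBXW7, a ubiquitin ligase subunit (215.5 kb), from 5.69 ± 0.284 to 23.8 ± 0.971.

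With the 38 genes left out, the median change with cisplatin in A549 went from 0.11 in 5210 genes under 10 kb, through 0.12, 0.04 and -0.09 in the classes of 10 to 30, 30 to 100 and 100 to 200 kb, to -0.34 in 872 genes of 200 to 500 kb and -0.74 in 125 genes over 500 kb. In that last class 68.0% of genes were lower and 8.8% higher in A549. The class over 500 kb had medians of -0.21 in A549/cDDP, -0.17 under the control gapmer and -0.22 under the SCAT7 gapmer, with 31.2%, 14.4% and 16% lower. Across 16944 genes, Spearman's rho between span and change was -0.17 in A549, -0.14 in A549/cDDP, -0.23 under the control gapmer and -0.20 under the SCAT7 gapmer, each over genes that share 4 libraries. With summed exon length in place of span it was -0.10, -0.05, -0.18 and -0.18. Among the 34 tested genes alone, rho with span was -0.14, -0.39, -0.28 and -0.26. Around the 200 kb limit, LRCH1 (199.9 kb) and AMPD3 (199.3 kb), just outside it, changed by -0.23 and 1.05 in A549, and the shortest listed genes, EFNA5 (294 kb) and NTRK3 (397 kb), by -0.23 and -3.23. Of 5 protein-coding genes wholly inside a listed gene, 2 were tested, and both lie in a host under the filter, on its opposite strand. FLRT3 inside MACROD2 changed by -0.24 and CSTF2T inside PRKG1 by -0.17 in A549.

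**Figure D3:**
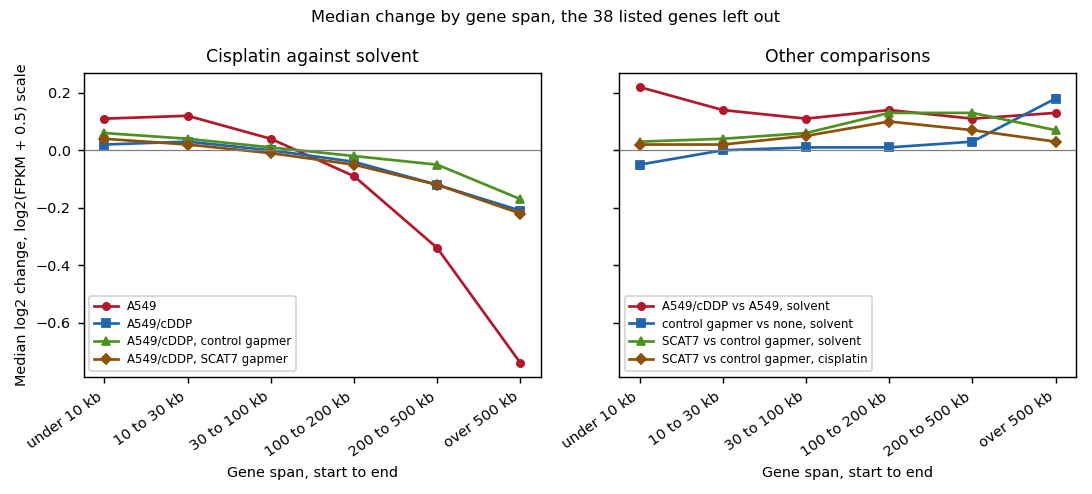
Median log2 change (vertical axis) of the genes tested in 6 classes of gene span (horizontal axis), the 38 listed genes left out, with 1 line per comparison, cisplatin against solvent on the left and the other comparisons on the right. The A549 line falls to -0.74 over 500 kb, and the 3 resistant-line curves end between -0.22 and -0.17.

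A list of 40 genes of transcription elongation and transcription-coupled repair was also read, 39 of them tested. In A549, 16 were higher and 7 lower (median 0.05), where 33.3% of all genes were higher and 27.1% lower. The 4 largest changes in size were rises. CCNK, the cyclin partner of CDK12, went from 45.3 ± 1.24 to 155 ± 0.574 FPKM, and the elongation factor genes ELL, ELL2 and EAF1 rose by 1.10, 0.94 and 0.89 on the log2 scale. The histone chaperone genes SSRP1 and SUPT16H, picked after their values were seen, averaged 148 and 232 FPKM in solvent and 92.0 and 169 in cisplatin. In A549/cDDP 0 were higher and 1 lower, under the control gapmer 1 higher and 0 lower, and under the SCAT7 gapmer 2 higher and 0 lower. Of 19 genes of common fragile sites, 10 were tested, and 7, 7, 5 and 2 were lower with cisplatin in the 4 states in the order above, with 0 higher, where 27.1%, 4.55%, 0.855% and 1.26% of all genes were lower. Of the 10, 5 (FHIT, WWOX, IMMP2L, DPYD and PARD3B) are among the 38, so these counts are partly fixed by the choice. As a check of the labels, CDKN1A, the p21 gene that cells raise after DNA damage, stood at 84.2 ± 0.123 FPKM in A549 solvent and 1620 ± 17.7 in cisplatin. Its differences in the resistant states were smaller. CDKN1A went from 577 ± 4.79 to 709 ± 1.64 in A549/cDDP and from 267 ± 2.2 to 448 ± 1.79 with the control gapmer. With the SCAT7 gapmer it stood at 625 ± 2.24 and 663 ± 3.16, which was not called. ELF3-AS1, which RefSeq also calls SCAT7, stood at 3.06 ± 0.716 FPKM in control gapmer cells in solvent and 0.716 ± 0.171 in SCAT7 gapmer cells (SD, n = 2). The gap was smaller in cisplatin, where control gapmer cells had 3.48 ± 0.351 FPKM of ELF3-AS1 and SCAT7 gapmer cells 1.93 ± 0.346. These log2 changes were -1.54 in solvent and -0.71 in cisplatin, both called lower. Within SCAT7 gapmer cells, ELF3-AS1 was higher in cisplatin than in solvent (log2 change 1.0, called). All 6 listed lung epithelial markers were present in each group. Of 12 genes listed for other lineages, 11 were under 0.5 FPKM in both libraries of every group without the SCAT7 gapmer. With that gapmer 9 were in solvent and 10 in cisplatin. SFTPC, counted among the 12, is however a surfactant gene of lung alveolar epithelium, and its highest library held 0.194 FPKM. The collagen gene COL1A1 averaged 9.6 FPKM in A549 solvent and 38.3 in A549/cDDP solvent.

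The next comparisons are not the ones the genes were listed for, but they use the same libraries. A gene high in the solvent libraries of a state was favoured by the choice, so the counts and p-values of these comparisons are not independent of it and are given as values of the fit over all genes. In solvent, A549/cDDP was compared with A549. Of the 34 genes, 18 were lower in A549/cDDP and 12 higher (limma adjusted p under 0.05), and over all genes 27.5% were lower and 42.7% higher. The median change was -0.29 against 0.15 over all genes. Median ratio scaling of the libraries moved the latter to 0.02, and quantile normalization gave 19 lower and 8 higher. NTRK3 fell from 32.4 ± 1.97 FPKM in A549 to 1.28 ± 0.13 in A549/cDDP (SD, n = 2, log2 change -4.21 ± 0.13 SE, limma adjusted p = 4.97e-11). CDH4 fell from 5.47 ± 0.521 to 0.587 ± 0.0597 (-2.45, limma adjusted p = 1.65e-09) and GMDS from 13.8 ± 0.713 to 2.68 ± 0.157 (-2.17, limma adjusted p = 7.2e-09). SPOCK1 rose from 8.93 ± 0.597 to 41.5 ± 2.14 FPKM (2.15, limma adjusted p = 4.3e-10), CPQ from 1.4 ± 0.506 to 5.34 ± 0.586 (1.65, limma adjusted p = 1.58e-06) and NAV2 from 6.13 ± 0.144 to 14.4 ± 0.296 (1.17, limma adjusted p = 2.09e-08). By role, 5 adhesion genes fell and 3 rose, 6 polarity genes fell and 4 rose, 3 enzymes fell and 2 rose, and 4 nuclear genes fell and 3 rose. LPP, UTRN, DPYD and FOXP1 did not pass. The summed lung epithelial markers were 8410 to 8430 FPKM in A549 solvent and 5560 to 5710 in A549/cDDP solvent, with 5 lower and 1 higher. Most of the sum is KRT7, KRT8 and KRT18. In A549 and A549/cDDP solvent, CDH1 averaged 14.5 and 2.92 FPKM, EPCAM 3.48 and 0.979, and KRT19, the higher marker, 90.8 and 164. The part of these markers in the differences was not tested.

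Control gapmer cells were compared with untransfected A549/cDDP, both in solvent. Genes high in either set of solvent libraries were favoured by the choice, so these counts and p-values are not independent of it. Here 23 of the 34 genes were higher and 3 lower, and over all genes 20.7% were higher and 19.0% lower. The median change was 0.53, against -0.01 over all genes, and both normalizations gave 23 and 3. All 6 enzyme genes rose, and 6 of 8 adhesion, 5 of 8 nuclear and 6 of 12 polarity genes rose. FHIT, an enzyme gene, passed the filter only through these control gapmer solvent libraries (mean 1.21 FPKM, against 0.114 to 0.572 in the other groups), so its rise is partly fixed by the filter. CDH4 rose from 0.587 ± 0.0597 to 3.71 ± 0.103 FPKM (1.96 ± 0.11 SE, limma adjusted p = 1.31e-07), GMDS from 2.68 ± 0.157 to 8.98 ± 0.0448 (1.58, limma adjusted p = 9.53e-07) and GPC6 from 2.19 ± 0.155 to 6.72 ± 0.0974 (1.43, limma adjusted p = 9.59e-06). LPP fell from 58.2 ± 0.917 to 42.3 ± 1.08 (-0.46, limma adjusted p = 5.84e-05), UTRN from 35.7 ± 0.433 to 29 ± 1.23 (-0.30, limma adjusted p = 0.000339) and TBC1D5 from 102 ± 3.51 to 87.3 ± 1.19 (-0.22, limma adjusted p = 0.0145). The TBC1D5 call was lost without control gapmer solvent replicate 1 (limma adjusted p = 0.0748) or untransfected solvent replicate 2 (0.1). CDKN1A went the other way from most of the genes, from 577 ± 4.79 to 267 ± 2.2 FPKM (-1.11, limma adjusted p = 1.57e-10), and its part in the result was not tested. Transfection and the control gapmer cannot be told apart in this design. In the class over 500 kb without the 38, the median was 0.18 and 37.6% of genes were higher.

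SCAT7 gapmer cells were compared with control gapmer cells in solvent. These control libraries are shared with the comparison just given, and the same limit holds. Of the 34 genes, 16 were lower and 9 higher with the SCAT7 gapmer, and over all genes 22.7% were lower and 33.2% higher. Quantile normalization gave 23 lower and 7 higher. The median change was -0.26 against 0.06 over all genes. Beside this, CDKN1A went from 267 ± 2.2 to 625 ± 2.24 FPKM (1.22, limma adjusted p = 3.08e-11). Of the 6 lung epithelial markers 5 were lower and 1 higher, at a sum of 6660 to 6960 and 5240 to 5330 FPKM, and the part of either in the result was not tested. WWOX fell from 9.67 ± 0.193 to 3.2 ± 0.398 FPKM (-1.46 ± 0.10 SE, limma adjusted p = 1.01e-07), GMDS from 8.98 ± 0.0448 to 2.99 ± 0.669 (-1.45, limma adjusted p = 7.72e-07) and CDH4 from 3.71 ± 0.103 to 1.11 ± 0.0092 (-1.39, limma adjusted p = 8.19e-07). Untransfected A549/cDDP in solvent had WWOX at 3.31 ± 0.096, GMDS at 2.68 ± 0.157 and CDH4 at 0.587 ± 0.0597 FPKM. NAV2 rose from 16.1 ± 0.712 to 24.6 ± 0.784 (0.60, limma adjusted p = 2.02e-05) and VPS13B from 14.2 ± 0.876 to 19.9 ± 0.121 (0.48, limma adjusted p = 2.06e-05). ZBTB20 rose from 2.21 ± 0.462 to 3.71 ± 0.704 (0.63, limma adjusted p = 0.0172), a call lost under quantile normalization (0.0834), without SCAT7 gapmer solvent replicate 1 (0.139) or without control gapmer solvent replicate 1 (0.142). In the polarity group 6 genes rose and 3 fell, while in the enzyme group 0 rose and 4 fell. FHIT is among those 4 and among the 16 lower genes. It passed the filter only through the control gapmer solvent libraries, the reference here, so its fall is partly fixed by the filter. Across the 34 genes, rho between exon length and change was 0.62, and it was -0.49 for the control gapmer against no transfection. Over 16944 genes the same rho was 0.06 and 0.05. Among the 34, rho with mean FPKM was 0.45 and -0.56, and with the longest intron -0.37 and 0.38. Both comparisons use the same control libraries, and what lies behind these correlations was not tested.

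With cisplatin in both groups, SCAT7 gapmer cells had 9 of the 34 genes lower and 6 higher than control gapmer cells, with 21.1% of all genes lower and 28.6% higher, and a median change of -0.11. CDKN1A stood at 448 ± 1.79 and 663 ± 3.16 FPKM with the control and the SCAT7 gapmer, and the epithelial markers, again 5 lower and 1 higher, summed to 6460 to 6490 and 5200 to 5440. Their part was not tested here either. Quantile normalization gave 14 lower and 5 higher. GMDS fell from 5.06 ± 0.00185 to 2.07 ± 0.106 FPKM (-1.12 ± 0.12 SE, limma adjusted p = 1.11e-05), NTRK3 from 2.13 ± 0.0633 to 1.03 ± 0.228 (-0.79, limma adjusted p = 0.000334) and WWOX from 5.94 ± 0.0984 to 3.29 ± 0.183 (-0.76, limma adjusted p = 3.69e-05). ATXN1 rose from 5.09 ± 0.27 to 6.74 ± 0.535 (0.37, limma adjusted p = 0.00345) and UTRN from 26.6 ± 1.39 to 33.9 ± 1.01 (0.34, limma adjusted p = 7.33e-05). ZBTB20 rose from 2.04 ± 0.0277 to 3.18 ± 0.153 (0.54, limma adjusted p = 0.0421), and the call was lost without any 1 of the 4 libraries (0.0907 to 0.129). CDH4, which differed in solvent, stood at 0.829 ± 0.022 and 0.912 ± 0.0289 here (0.09, limma adjusted p = 0.561).

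**Figure D4:**
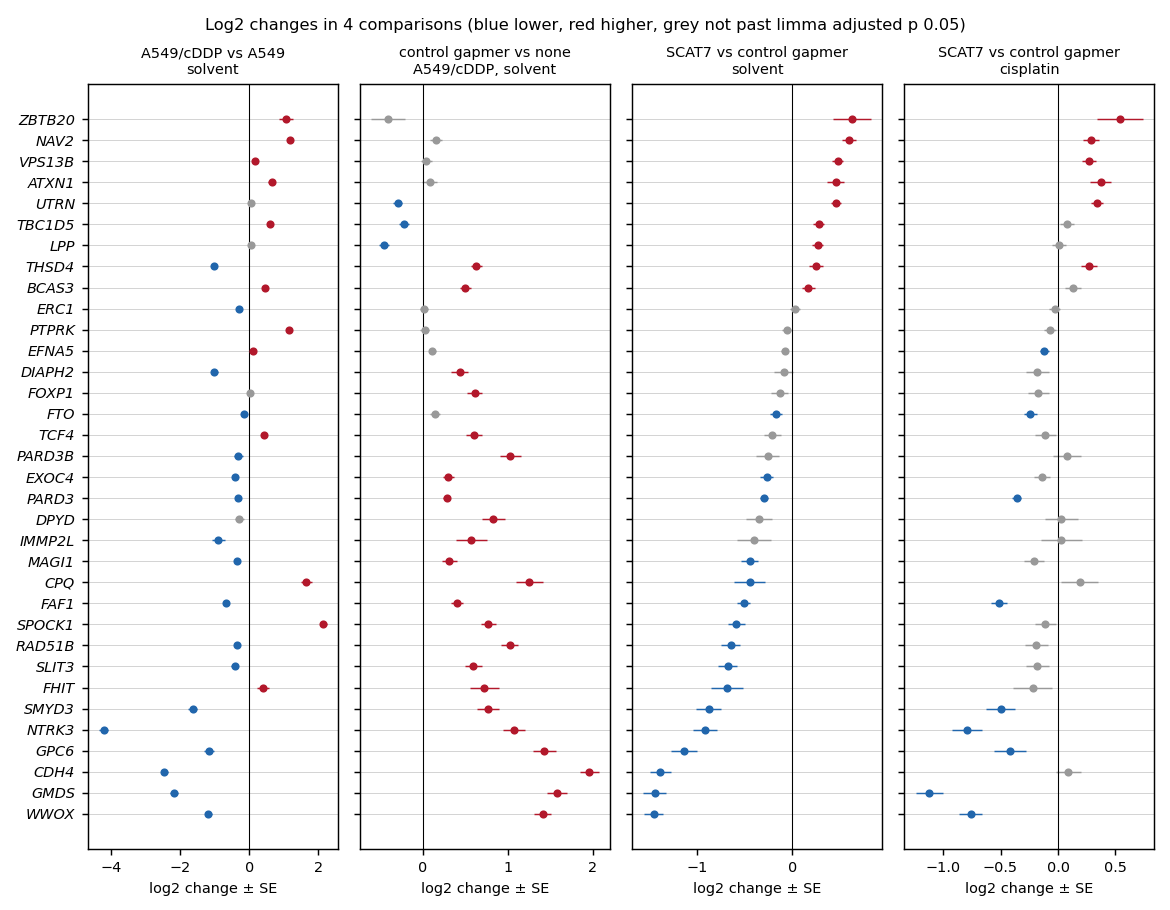
Log2 change with its standard error (horizontal axes, log2(FPKM + 0.5) scale) of the 34 tested genes (rows) in 4 comparisons, coloured by the limma call: blue lower, red higher, grey not past the threshold. The control gapmer panel is mostly red (23 higher, 3 lower), and the first panel reaches -4.21 in NTRK3.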

How the data were processed

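RNA of 16 libraries was described from 1 table that the authors deposited in FPKM, fragments scaled by gene length and library total. Alignment with TopHat2 and counting with HTSeq 0.6.1 on hg38 are named in the submitters' processing notes, while the annotation and the strand setting are not given in the sources used here, so reads of genes that overlap on opposite strands cannot be told apart. Names and spans came from GENCODE 29, with a model for 56868 of 60448 identifiers. Depth, 31290000 to 42970000 fragments per library, was worked out from the steps between low deposited FPKM values. Within 0.02 reads, 75.2% to 81.3% of the low values were whole, which makes the read numbers approximate.

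Values were tested as log2(FPKM + 0.5) with limma 3.58.1 (R 4.3.3), a trended prior and 1 mean per group, 8 residual degrees of freedom, over the 17198 genes averaging 0.5 FPKM or more, two-sided, with Benjamini-Hochberg adjustment and a threshold of 0.05. The fit was run on simulated read numbers with 1 fixed spread for all genes. The simulation covered only A549/cDDP against A549 and the SCAT7 against the control gapmer, both in solvent. It did not cover the cisplatin comparisons. Members and lists were chosen with earlier results of these data known. Library values are given for the 6 lowest and 4 highest genes with cisplatin in A549, the 3 lowest and 2 highest in each other state, the 3 largest called rises and falls in each comparison of lines or gapmers, and genes whose direction differed between states. DPYD, THSD4, MACROD2 and others named beside them were chosen after their values were seen. Among long genes outside the list, 1 gene is not reported here. Alternatives were pseudocounts of 0.1 and 1, filters of 1 FPKM and none, 2 normalizations, a fit on the 4 libraries compared, each library left out and the replicate number as a block. Promoter windows are from RefSeq (GRCh38.p14).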

Additional observations from a re-analysis of the deposited data

Results flagged for a closer look

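Some genes were singled out because every library of a state moved 1 way and every library of another state the opposite way under the same contrast. None of these differences was tested. Of all genes tested, 26.1% had both cisplatin libraries above both solvent libraries in A549/cDDP. Both lay below for 35.8% in A549 and for 20.1% with the control gapmer. The rises of SPOCK1 and PTPRK in A549/cDDP, and the fall of PTPRK with the control gapmer, were not called. For cisplatin against solvent, SPOCK1 changed by -3.25 in A549 and by 0.17 in A549/cDDP, a difference of 3.42, and PTPRK by -0.48 and 0.07, a difference of 0.55. Between untransfected A549/cDDP and the control gapmer cells, SPOCK1 went from 0.17 to -0.76, a difference of -0.93, and PTPRK from 0.07 to -0.12, a difference of -0.19. For the SCAT7 gapmer against the control gapmer, CDH4 changed by -1.39 in solvent and 0.09 in cisplatin (difference 1.48), CPQ by -0.45 and 0.19 (difference 0.64) and PARD3B by -0.26 and 0.08 (difference 0.34). The rises of CDH4, CPQ and PARD3B in cisplatin were not called, nor was the fall of PARD3B in solvent. Of 17198 genes, 5637 were non-overlapping lower in solvent and 7000 non-overlapping higher in cisplatin.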

How the results depend on the processing

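For the 34 genes, the counts called, lower and higher together, in A549 and in the 4 comparisons of lines and gapmers stayed within 1.5 times their values in every alternative run, and 0 genes were called higher with cisplatin in any. The counts with 1 library left out were 32 for cisplatin in A549, 25 to 28 for A549/cDDP against A549, 22 to 24 for the control gapmer, and 20 to 23 and 11 to 16 for the SCAT7 gapmer in solvent and in cisplatin. Of the checks on single named genes, 521 kept their value or call, 53 moved, 13 lost a call and 0 reversed. The count for cisplatin in A549/cDDP was 8 on the 4 libraries alone and 11 to 21 with 1 library left out. With the control gapmer it was 9 with no filter and 6 to 8 with 1 library left out. With the SCAT7 gapmer it was 0 on the 4 libraries alone (limma, 16 genes at an unadjusted p under 0.05) and 0 to 16 with 1 library left out. Counts over all genes moved too. In A549/cDDP 1393 became 417 on the 4 libraries and 509 to 1049 with 1 left out. With the control gapmer 435 became 270 and 137 to 179, and with the SCAT7 gapmer 719 became 0 and 9 to 1626. Apart from the fewer libraries in these fits, the cause was not tested. The share of all genes at an unadjusted p under 0.05 in the fit on 4 libraries is not given here.

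Across all genes, rho between span and change with cisplatin in A549 was -0.10 for exon length, -0.20 for protein-coding genes, -0.15 for genes of at least 5 FPKM, -0.18 with median ratio scaling and -0.18 to -0.16 with 1 library left out, a setting added after seeing the data. In A549/cDDP it was -0.05, -0.25 and -0.21 in the first 3 settings and -0.16 to -0.10 with 1 library left out. With the control gapmer 1 library left out gave -0.26 to -0.14. With the SCAT7 gapmer protein-coding genes gave -0.32, genes of at least 5 FPKM -0.36 and 1 library left out -0.22 to -0.14. For A549/cDDP against A549, -0.05 became 0.04 for protein-coding genes, 0.04 for genes of at least 5 FPKM and -0.07 with median ratio scaling. For the control gapmer against no transfection, 0.10 became 0.05 for exon length, 0.02 for protein-coding genes, -0.01 for genes of at least 5 FPKM and 0.06 to 0.13 with 1 library left out. For the SCAT7 gapmer against the control, 0.04 became 0.10 and 0.16 in solvent, and 0.08 and 0.13 in cisplatin, for protein-coding genes and genes of at least 5 FPKM, with 0.02 to 0.07 and 0.0 to 0.07 with 1 library left out. The cause of these shifts was not tested.

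Deviations of same-numbered libraries correlated at -0.073 to 0.113 over the comparisons. With so few libraries a group, this cannot show whether same-numbered libraries were handled together. With the replicate number as a block, the counts were 32, 22, 14 and 9 for cisplatin in the 4 states and 28, 26, 25 and 14 in the comparisons of lines and gapmers. ZBTB20 in cisplatin lost its call under the block (limma adjusted p = 0.0534), with no filter (0.0915) and with median ratio scaling (0.0525) or quantile normalization (0.118). For the SCAT7 gapmer in cisplatin, quantile normalization moved the lower count alone from 9 to 14. Depth limited KIF26B (3 to 58 reads per library), PRKG1 (3 to 50) and NAALADL2 (7 to 130), while MACROD2 was left out by the filter.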
